A study of Sus scrofa with 12 samples.

Results

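The genes described here are 50 listed genes of the motile cilium, the whip-like organelle that beats, measured in whole pig ovaries. They were taken as the loci of the deposited table whose gene name equals a listed symbol, at the locus with the most counts where a symbol stood on several and with no filter on low expression. In this way 35 of the 50 listed genes were found among 29150 loci, on 15 chromosomes. The list was proposed with results of these ovaries known, so the levels and the ES to NES differences of its genes are given as a description. The ES group holds 6 gilts (young female pigs) of a New French Yorkshire line that had shown 2 estrus cycles in a row, and they were slaughtered in the third estrus. Their 6 full sisters without any recorded estrus make up NES. Estrus was watched for from 165 days of age, and the age at slaughter is not given in the sources used here. All 12 libraries are of total RNA from the left ovary after removal of ribosomal RNA, and no gilt was treated or genetically altered.

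A motile cilium is built on the axoneme, a ring of doublet microtubules around a central pair. Outer and inner dynein arms, which are motors on each doublet, slide the doublets, nexin links and radial spokes turn sliding into bending, and the central pair with its projections steers the beat. Multiciliated cells, which carry many such cilia, switch on these genes together under MCIDAS, FOXJ1 and the RFX factors. In the female tract they are known from the lining of the oviduct. Follicle and stromal cells of the ovary mostly carry a solitary primary cilium, which senses signals and does not need dynein arms, spokes or a central pair.

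In 1 of the 12 libraries, ES6, nearly the whole set stood above its level in the other 11. The median level over the 12 libraries was under 0.5 FPKM for 29 of the 35 genes, though 24 had at least 10 counts in every library. FPKM values are fragments scaled to length and library size, a level per length, and their sum over the 35 genes was 172 in ES6. It lay between 9.01 and 16.1 in the remaining ES libraries and between 13.5 and 15.4 in NES. ES6 was the highest of the 12 libraries on the CPM scale (counts scaled to library size with TMM factors) for 34 of the 35 genes, while it was the highest for 10.6% of all loci. It exceeded the next highest library at least 5-fold, with at least 30 counts, for 24 of the 35 genes and for 1.28% of all loci, a threshold chosen after the values were seen. The 35 genes took 112099 counts in ES6 and 7202 to 14657 in any other library, out of library totals of 58140547 to 68961955. The ES mean of the sum was 38.4 ± 65.5 FPKM (SD, n = 6) and the NES mean 14.3 ± 0.70, so the ES spread exceeded the ES mean. With ES6 left out the ES mean was 11.7 ± 3.00 FPKM (n = 5), below the NES mean.

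**Figure D1:**
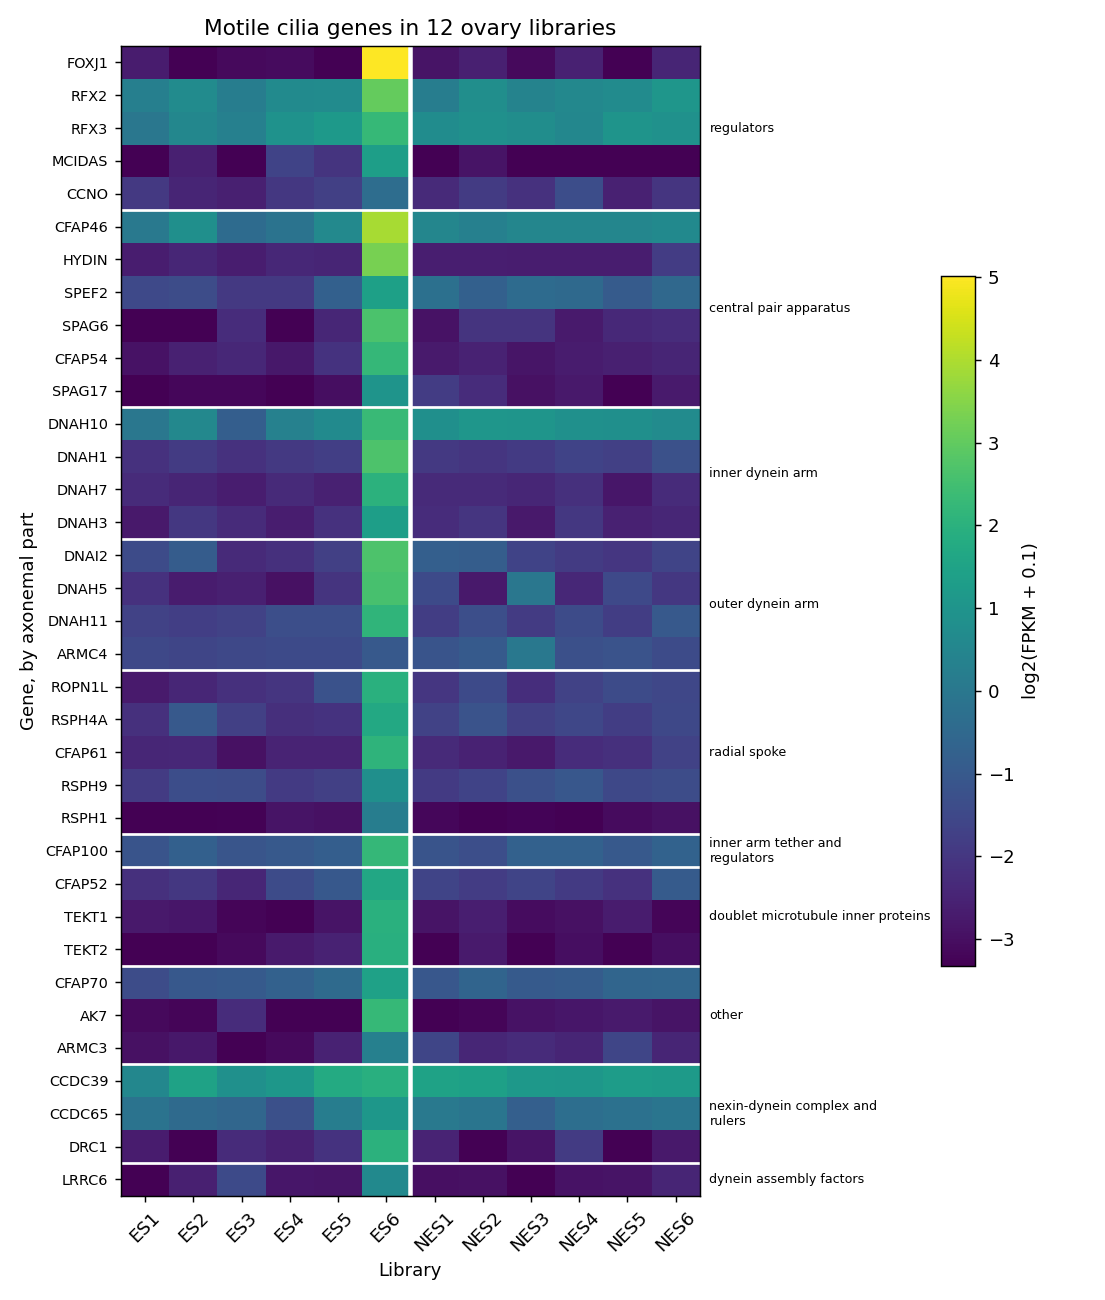
Level of each of the 35 motile cilia genes (rows, grouped by axonemal part) in the 12 ovary libraries (columns, ES left and NES right of the white line), as log2(FPKM + 0.1) in colour. The ES6 column is the brightest for every gene except ARMC4, and RFX2, RFX3, CFAP46, DNAH10 and CCDC39 stay visible in all 12 libraries.

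FOXJ1, the forkhead factor that drives the motile cilia programme (MSTRG.3831, chromosome 12, 5307131 to 5312250, Sscrofa11.1), showed the widest gap. It stood at 0.056, 0, 0.016, 0.020 and 0 FPKM in ES1 to ES5, at 32.2 FPKM in ES6, and at 0.036, 0.066, 0.016, 0.069, 0 and 0.084 FPKM in NES1 to NES6. These values rest on 7642 counts in ES6 and on 0 to 19 counts elsewhere. ES6 thus lay 394-fold above the next library in CPM and held 98.8% of the CPM summed over the 12 libraries. MCIDAS, the switch that commits a cell to many cilia (MSTRG.9669, chromosome 16, 34377960 to 34384438), was at 2.43 FPKM in ES6. This is 227 counts, against 20, 13 and 6 counts in ES4, ES5 and ES2. MCIDAS had 4 counts in NES2 and none in ES1, ES3 or the rest of NES. A library without a count allows up to 0.0423 to 0.0523 CPM, for counting error only. CCNO, a cyclin-like protein needed to multiply centrioles (MSTRG.9670, chromosome 16, 34386446 to 34390651), lies 2.01 kb from MCIDAS on the same strand. It stood at 0.69 FPKM in ES6 and at 0.067 to 0.288 FPKM in the other libraries. The CCNO value in ES6 was 2.38 times that of the next library, NES4.

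RFX2 and RFX3, factors that bind the X-box of ciliary genes and also serve primary cilia, differed from FOXJ1 in that every ovary had them. RFX2 (MSTRG.12388, chromosome 2, 72949989 to 73051524) ranged from 1.05 to 1.54 FPKM in ES1 to ES5 and from 1.05 to 1.97 FPKM in NES, with a median of 1.47, and reached 8.19 FPKM in ES6. RFX3 (MSTRG.1715, chromosome 1, 218339772 to 218643921) ranged from 0.897 to 2.18 FPKM in ES1 to ES5 and from 1.36 to 1.89 FPKM in NES, against 4.68 FPKM in ES6. Apart from ES6 the groups overlapped for both genes.

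Among the motors, 6 dynein heavy chains had a locus of their own, and in ES6 they lay within 2.56-fold of one another, from 2.45 FPKM (DNAH3) to 6.29 FPKM (DNAH1). DNAH5, the outer arm heavy chain (MSTRG.9473, chromosome 16, 3115476 to 3430259), was at 0.129, 0.057, 0.068, 0.030 and 0.138 FPKM in ES1 to ES5 and at 5.89 FPKM in ES6. In NES1 to NES6 it stood at 0.27, 0.050, 0.890, 0.092, 0.257 and 0.157 FPKM, so NES3 was high within NES (1537 counts). DNAH11, a further outer arm heavy chain, reached 4.27 FPKM in ES6 and 0.176 to 0.399 FPKM elsewhere. DNAI2, an outer arm intermediate chain (MSTRG.3898, chromosome 12, 6809473 to 6832766), was at 6.34 FPKM in ES6. Its range was 0.10 to 0.436 FPKM in the rest of ES and 0.147 to 0.479 FPKM in NES. The outer arm genes without ARMC4 thus all peaked in ES6, 6.64- to 14.0-fold above the next library.

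Of the inner arm heavy chains, DNAH1 (MSTRG.5401, chromosome 13, 34465047 to 34544552) stood at 6.29 FPKM in ES6, 0.128 to 0.189 FPKM in ES1 to ES5 and 0.145 to 0.323 FPKM in NES. DNAH7 was at 4.02 FPKM in ES6 and at most 0.125 FPKM in any other library. DNAH10 (MSTRG.7028, chromosome 14, 29095469 to 29249638) had the highest base among the heavy chains, all of which had counts in every library. It measured 0.896, 1.38, 0.460, 1.17, 1.5 and 4.90 FPKM in ES1 to ES6 and 1.69, 2.00, 1.93, 1.74, 1.70 and 1.53 FPKM in NES1 to NES6. Except for ES6, all ES values of DNAH10 were below all NES values in FPKM, while on CPM ES5 lay just above NES6. LRRC6, a factor that assembles dynein arms in the cytoplasm (MSTRG.15140, chromosome 4, 8532725 to 8608372), was at 1.44 FPKM in ES6, 0.269 FPKM in ES3 and at most 0.080 FPKM in the other libraries.

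ARMC4, a component that docks the outer arm, did not follow the set. The locus with its name (MSTRG.2782, chromosome 10, 39172376 to 39307801) was at 0.248, 0.231, 0.249, 0.262, 0.27 and 0.407 FPKM in ES1 to ES6. NES1 to NES6 had 0.350, 0.419, 0.908, 0.310, 0.335 and 0.273 FPKM, so that NES3 was highest and NES2 also lay above ES6. On CPM, ES6 came next after NES3. The count of this locus in ES6 divided by its FPKM and the library total gives an effective length of 83.7 kb, against 1.47 to 29.6 kb (median 6.14 kb) for the other 34 genes. The part of this in the ARMC4 level was not tested.

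The central pair genes had the highest structural levels. CFAP46, a protein of a central pair projection (MSTRG.8365, chromosome 14, 140913641 to 141002803), reached 15.1 FPKM in ES6 from a base of 0.653 to 1.66 FPKM in ES1 to ES5 and 1.15 to 1.44 FPKM in NES. HYDIN, a giant central pair protein (MSTRG.17949, chromosome 6, 13895493 to 14233941), was at 9.89 FPKM in ES6 (12707 counts), 0.0595 to 0.0886 FPKM in ES1 to ES5, and 0.0577 to 0.178 FPKM in NES with NES6 on top. SPAG6 stood at 6.23 FPKM and CFAP54 at 4.62 FPKM in ES6, each at or below 0.14 FPKM elsewhere. SPAG17, also of the central pair, was at 1.88 FPKM in ES6, at most 0.024 FPKM in the other ES libraries and up to 0.176 FPKM in NES. SPEF2, a central pair protein present in every ovary, was at 2.57 FPKM in ES6, 0.159 to 0.488 FPKM in ES1 to ES5 and 0.428 to 0.751 FPKM in NES.

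Radial spoke genes peaked in ES6 as well, in 5 of 5 cases. ROPN1L, a spoke-associated protein (MSTRG.9458, chromosome 16, 43233 to 60844), was at 3.78 FPKM in ES6, 0.052 to 0.331 FPKM in the other ES libraries and 0.111 to 0.274 FPKM in NES. RSPH4A, a spoke head protein (MSTRG.389, chromosome 1, 44963886 to 45002493), was at 3.16 FPKM in ES6 and at most 0.405 FPKM elsewhere. RSPH9 and RSPH1, further spoke head proteins, reached 1.66 and 1.06 FPKM in ES6, and RSPH1 had 0 to 11 counts in any other library. CFAP61, of a complex at the spoke base, was at 4.21 FPKM in ES6 and 0.030 to 0.213 FPKM elsewhere.

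Doublet proteins and links split into tightly confined and broadly present genes. TEKT1, a tektin filament inside the doublet (MSTRG.4703, chromosome 12, 50524200 to 50549758), was at 3.85 FPKM in ES6 and at most 0.064 FPKM in any other library, a 62.3-fold step to the next one. TEKT2 showed a 45.6-fold step and CFAP52 (MSTRG.4836, chromosome 12, 54544590 to 54581846), also an inner doublet protein, a 7.52-fold step. CFAP100, an inner arm regulator (MSTRG.21048, chromosome 7, 53909425 to 53951749), was at 4.60 FPKM in ES6 and 0.302 to 0.514 FPKM elsewhere. DRC1, of the nexin-dynein complex, was at 4.03 FPKM in ES6 and at most 0.171 FPKM elsewhere. CCDC39, a ruler protein that sets the repeat along the doublet (MSTRG.6085, chromosome 13, 118625072 to 118682281), behaved otherwise, with 1.35, 2.70, 1.73, 2.01, 3.34 and 3.74 FPKM in ES1 to ES6 and 2.05 to 2.68 FPKM in NES. ES6 led ES5 by only 1.13-fold there. CCDC65, the partner of DRC1 (MSTRG.16703, chromosome 5, 14950492 to 14959327), was at 2.02 FPKM in ES6, 0.311 to 1.07 FPKM in the rest of ES and 0.477 to 0.926 FPKM in NES.

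Outside these groups, AK7, an adenylate kinase of ciliated cells (MSTRG.21827, chromosome 7, 117609840 to 117667455), was at 4.75 FPKM in ES6 and at most 0.108 FPKM elsewhere. CFAP70 (MSTRG.7710, chromosome 14, 76075286 to 76199811) was at 2.65 FPKM in ES6 on a base of 0.282 to 0.632 FPKM. ARMC3 was at 1.13 FPKM in ES6, 0 to 0.074 FPKM in ES1 to ES5 and 0.081 to 0.237 FPKM in NES. It lies 449.48 kb from SPAG6 on chromosome 10, and this pair and MCIDAS with CCNO were the only ones among the 35 genes less than 1 Mb apart.

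**Figure D2:**
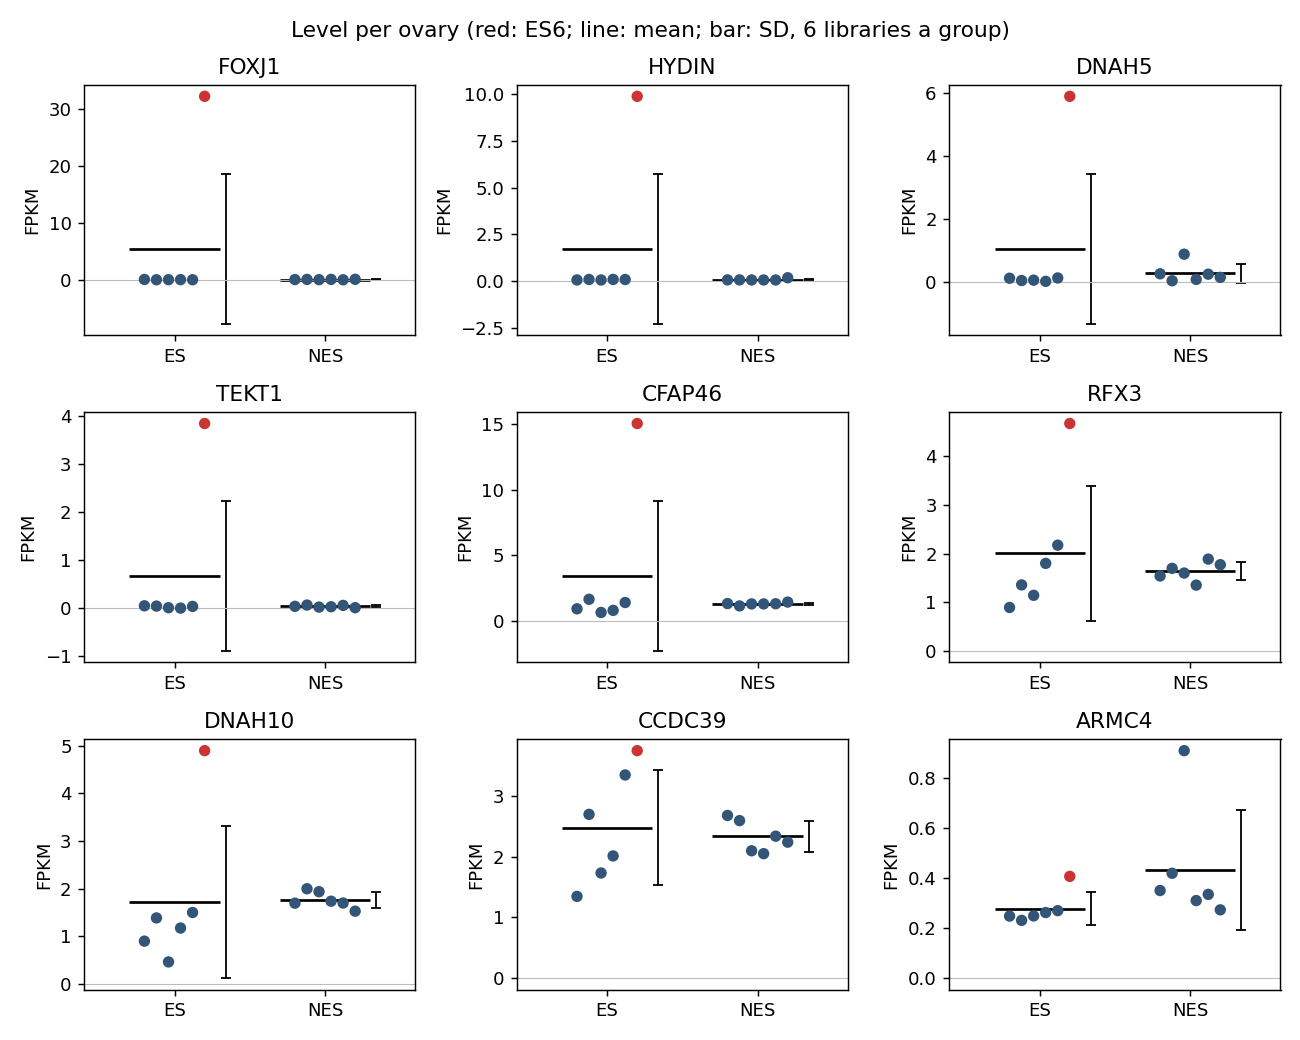
FPKM of 9 of the genes in each ovary, with ES6 in red, the group mean as a line and the SD of 6 libraries as a bar. In FOXJ1, HYDIN, DNAH5 and TEKT1 the ES mean rests on ES6, in RFX3, DNAH10 and CCDC39 every ovary is at 0.46 FPKM or more, and in ARMC4 the highest point is NES3.

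The axonemal parts were compared by their summed FPKM, which depends on how many genes were measured. The median FPKM per gene in ES6 was 5.43 for 6 central pair, 4.46 for 4 inner arm and 5.08 for 4 outer arm genes. It was 3.16 for 5 radial spoke, 3.70 for 3 inner doublet and 3.74 for 3 nexin and ruler genes. Outside ES6, CFAP46 held most of the central pair sum and DNAH10 most of the inner arm sum. The central pair genes summed to 40.3 in ES6, 1.08 to 2.22 in ES1 to ES5 and 1.96 to 2.46 in NES. Inner arm genes summed to 17.7 in ES6, 0.749 to 1.88 in the rest of ES and 2.01 to 2.39 in NES. For the outer arm the sums were 16.9, 0.632 to 0.916 and 0.851 to 2.20, in the same order. Radial spoke genes gave 13.9, 0.438 to 0.875 and 0.641 to 1.02, and inner doublet proteins 10.7, 0.109 to 0.503 and 0.187 to 0.456. The nexin and ruler genes, with CCDC39 among them, gave 9.79, 2.20 to 4.55 and 2.61 to 3.68. Every part listed was thus highest in ES6, by different amounts.

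The step was also read as a difference. ES6 exceeded the median of the 12 libraries by more than 1 FPKM for 33 of the 35 genes, and for 30 of them by 1 to 7 FPKM (median over all 35 genes 3.59, range 0.115 to 32.2). DNAH10 and DNAH7 lay 3.29 and 3.92 FPKM above their medians, although their steps to the next library were 2.54- and 31.9-fold. RFX3 and TEKT1 lay 3.03 and 3.82 FPKM above theirs, with steps of 2.17- and 62.3-fold. A median of at least 0.1 FPKM was found for 10 of the 11 genes without a 5-fold step and for 11 of the 24 genes with one. FOXJ1, CFAP46 and HYDIN had the largest differences, at 32.2, 13.8 and 9.83 FPKM, and CCNO and ARMC4 had the lowest, at 0.54 and 0.115 FPKM. ES6 is 1 library, so the order of levels within it has no replicate.

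**Figure D3:**
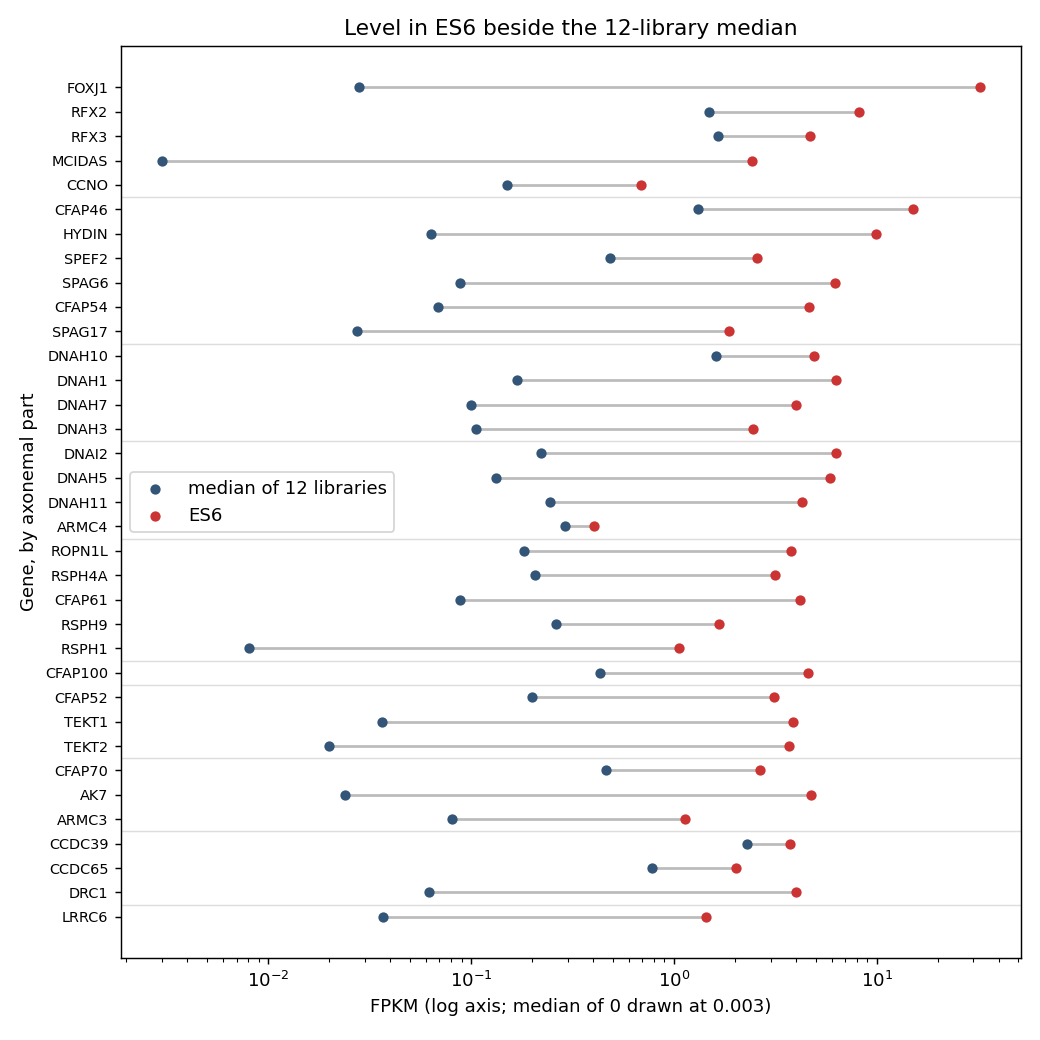
FPKM in ES6 (red) and the median FPKM over the 12 libraries (blue) for the 35 genes, on a log axis, grouped by axonemal part; a median of 0 is drawn at 0.003. Most red points lie between 1 and 7 FPKM whether the blue point is near 0.02 or above 1 FPKM.

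Correlations across libraries describe the same dependence on ES6. Each gene was compared with the mean of the others on log2(FPKM + 0.5) over the 12 libraries. Within a library all genes share its depth and scaling. Pearson's r had a median of 0.98 and was above 0.9 for 28 of the 35 genes, while Spearman's rho had a median of 0.50. ARMC4 had the lowest r, at 0.16, followed by CCDC39 at 0.62. Without ES6, over 11 libraries, the median r was 0.36 (range -0.42 to 0.79), none was above 0.9, and the median rho was 0.35. The r values above 0.9 thus rested on ES6, while r did not fall for CCDC39 (0.71) or ARMC4 (0.23). Most genes had a median below the added 0.5 FPKM, so r over these 11 libraries cannot decide whether they moved together at low levels. For the 6 genes with a median of at least 0.5 FPKM, r without ES6 was 0.78 (DNAH10), 0.74 (CFAP46), 0.71 (CCDC39), 0.69 (RFX3), 0.57 (RFX2) and 0.40 (CCDC65), given as a description.

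The study's comparison is between ES and NES. The quasi-likelihood test of edgeR, adjusted by Benjamini-Hochberg over 29150 loci, called 0 of the 35 genes (adjusted p from 0.152 to 0.989). It called 0.0961% of all loci, 3 higher (0.0103%) and 25 lower (0.0858%) in ES. At an unadjusted p under 0.05 there were 18 of the 35 genes, among them FOXJ1, HYDIN and TEKT1, and 14.9% of all loci. DESeq2 gave no p, adjusted or unadjusted, for 27 of the 35 genes. Of the other 8 it called 0, and 2 had an unadjusted p under 0.05, as did 4138 of the 29150 loci. DESeq2 called 5.23% of the loci it adjusted. limma on log2(FPKM + 0.5) called 0 of the 35 genes, and of the 29150 loci 2 higher and 45 lower in ES. At an unadjusted p under 0.05 limma had 0 of the 35 genes and 3651 of the 29150 loci. As the genes were listed with this contrast known, nothing is read from these counts. Log2 differences (ES minus NES) were positive for 34 of the 35 genes with a median of 1.90, where 56.1% of all loci were positive with a median of 0.05. For no gene were all ES values above or below all NES values, and 1.56% of all loci had groups apart in that way.

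Without ES6 the higher ES level of most of these genes was gone. The log2 difference changed sign for 23 of the 35 genes, 11 were positive and 24 negative (54.3% of all loci were positive), and the median was -0.08 against 0.04 over 28997 loci. FOXJ1 went from 6.89 ± 2.26 (SE, edgeR adjusted p = 0.207) to -1.07 ± 1.10 (edgeR adjusted p = 0.690). HYDIN went from 4.44 ± 1.43 (edgeR adjusted p = 0.200) to 0.01 ± 0.32, and TEKT1 from 4.17 ± 1.54 (edgeR adjusted p = 0.255) to -0.31 ± 0.80. edgeR called 0 genes and 0% of loci in that fit, with 7 of the 35 genes and 14.3% of loci at an unadjusted p under 0.05. Those 7 were MCIDAS with a log2 difference of 3.44, and SPAG17, ARMC3, DNAH5, SPEF2, ARMC4 and DNAH10 with differences of -2.75, -1.95, -1.66, -1.03, -0.68 and -0.61. Of all loci, 5.82% had an unadjusted p under 0.05 and a lower ES value. Their adjusted p values in edgeR ran from 0.161 (SPEF2) upward. For DNAH10, ARMC3 and ARMC4 all 5 remaining ES libraries lay below all NES libraries in FPKM, as they did for 1.89% of all loci. On CPM this held for ARMC3 alone, as ES5 lay just above NES6 for DNAH10 and ES1 above NES6 for ARMC4. The DNAH5 and ARMC4 values include the high library NES3.

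**Figure D4:**
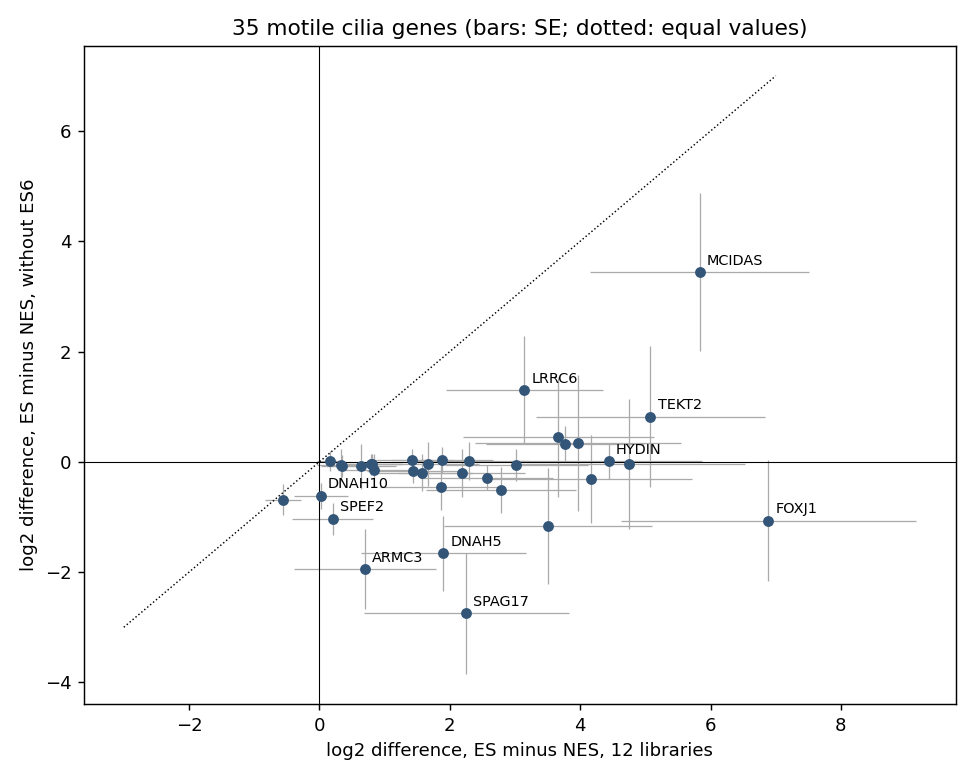
Log2 difference (ES minus NES, edgeR) of the 35 genes with all 12 libraries (horizontal) and without ES6 (vertical), with SE bars and a dotted line of equal values. Every point lies below the dotted line, and most lie near 0 on the vertical axis, while FOXJ1 moves from 6.89 to -1.07.

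The 15 listed genes without a locus of their own were looked up after these values were seen and are no members by the rule. For 4 of them (DNAI1, SPAG16, CFAP43, CFAP44) a locus carries the Ensembl identifier alone, and for 3 (DNAH6, DNAH12, CFAP47) an unnamed locus overlaps the RefSeq gene of the same build by at least 0.5 each way. All 7 of these loci were highest in ES6, 7.96- to 55.5-fold above the next library. They stood at 2.42 to 5.10 FPKM in ES6 and at 0 to 0.496 FPKM elsewhere. The inner arm heavy chain DNAH12 (MSTRG.5463, chromosome 13, 39148375 to 39384352) had 5037 counts in ES6 and 30 to 133 in the other libraries. A further 6 (DNAH2, DNAH9, CCDC40, ZMYND10, TPPP3, CAPS) lie in loci joined with other genes, whose reads cannot be divided. The locus that joins DNAH9 with ZNF18 had 21379 counts in ES6 and 1233 to 4299 elsewhere, whereas that of CCDC40 with GAA was highest in ES1. CFAP53 and PIFO matched no locus.

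For 4 of the 35 genes a second locus of the same name lies on the opposite strand. Libraries kept strand, but the strand setting of the counting is not given in the sources used here, so reads of the strands may not be fully apart. Each of these opposite-strand loci was highest in ES6, as its gene was. CFAP54 also has a second locus, without a strand, that was highest in ES2 (49 counts, against 35 in ES6). The one opposite AK7 had 370 counts in ES6, 0 in 9 other libraries and 4 in each of the remaining ones, that opposite DNAI2 193 counts and 0 to 17, that opposite DNAH5 109 and 0 to 8, and that opposite HYDIN 75 and 0 to 13.

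Other genes of the same organelle were read from lists written down for this comparison. Of 51 measured motile cilia genes outside the list, 46 were highest in ES6 and 23 passed the 5-fold step there, with none doing so in another library. Over all loci ES6 was highest for 10.6% and passed this step for 1.28%. edgeR called 0 of the 51 and 0.0961% of all loci, and 15 of the 51 and 14.9% of all loci had an unadjusted p under 0.05. The 3 with the highest mean FPKM were broadly present: DNAAF5, a dynein assembly factor, was at 4.06 FPKM in ES6 and 2.47 to 3.71 FPKM elsewhere, and GAS8, of the nexin-dynein complex, at 6.61 and 1.97 to 3.34 FPKM. DNAL1, a dynein light chain, was highest in ES4 (5.24 FPKM). Chosen after its values were seen, TEKT4 had 461 counts in ES6 and 0 in the other 11 libraries, and WDR38 85 counts and 0. Of the 7 measured regulators of multiciliated cells beside the listed ones, 5 were highest in ES6 and 3 passed the 5-fold step, while edgeR called none and 2 had an unadjusted p under 0.05. These 3 were GMNC, the factor upstream of MCIDAS (350 counts in ES6, 0 to 20 elsewhere), TP73 (1644 and 22 to 70) and MYB (470 and 5 to 49). DEUP1, which builds centrioles in bulk, was at 2.32 FPKM in ES6 and 0.245 to 0.609 FPKM elsewhere. E2F5 was at 1.76 FPKM in ES6 and 0.574 to 1.57 FPKM elsewhere, and RFX1 was highest in NES3.

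Genes of the primary cilium and of intraflagellar transport, which carries cargo along both kinds of cilium, were present in all ovaries and showed no such step. Of 40 measured, 23 were highest in ES6 (all loci: 10.6%) and 0 passed the 5-fold step (all loci: 1.28%), with a median step to the next library of 1.20. Their summed FPKM was 141 in ES6, 70.5 to 118 in the other ES libraries and 102 to 115 in NES. The 3 with the highest mean were MKS1 (4.54 FPKM in ES6, highest in ES4 at 10.1), IFT46 (7.17 in ES6, 2.05 to 6.48 elsewhere) and TCTN1 (7.58 in ES6, 3.24 to 6.87 elsewhere). edgeR called 0 of these 40 genes and 0.0961% of all loci, and 6 of the 40 and 14.9% of all loci had an unadjusted p under 0.05.

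**Figure D5:**
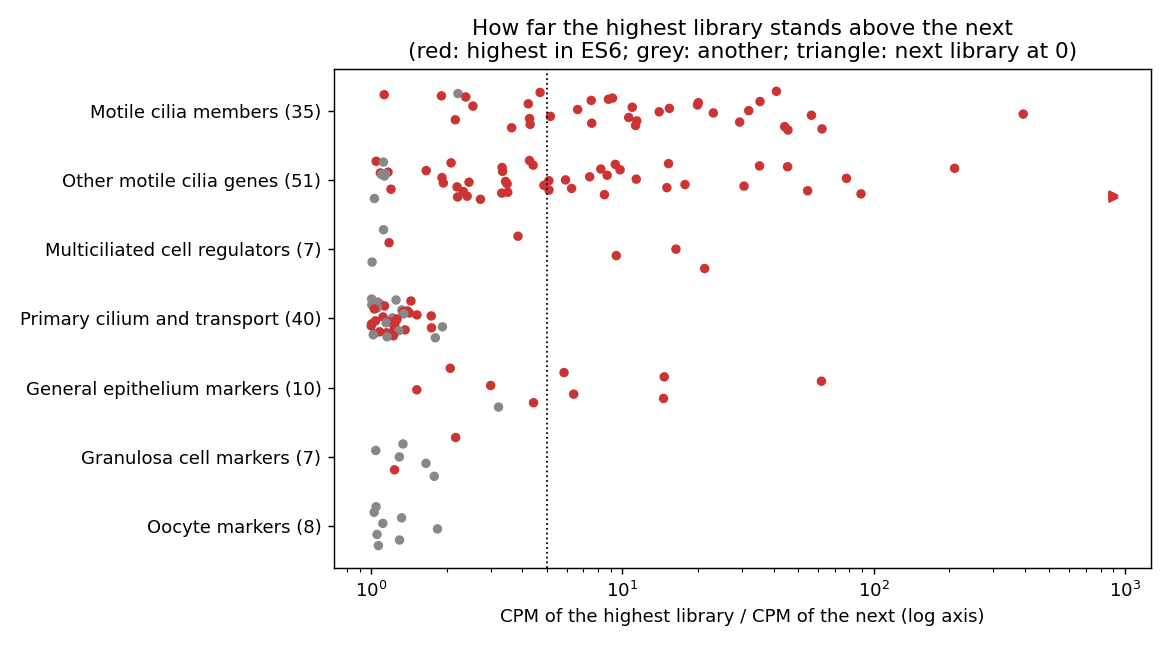
CPM of the highest library divided by that of the next (log axis) for each gene of 7 lists, red where the highest library is ES6; the dotted line marks 5-fold, and triangles mark genes with 0 in the next library, drawn at the right edge. Both motile cilia lists reach far past 5-fold in ES6, while all primary cilium genes stay below 2-fold.

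Markers of other cell types that a whole ovary can hold were read in the same way. Of 12 general epithelium markers 10 were measured, 9 were highest in ES6 (all loci: 10.6%) and 5 passed the 5-fold step there (all loci: 1.28%). Their sums were 42.8 FPKM in ES6, 3.20 to 11.6 in the other ES libraries and 1.45 to 4.66 in NES. KRT8, a keratin of simple epithelia, was at 11.8 FPKM in ES6 and 0.313 to 2.63 FPKM elsewhere, CLDN4, a tight junction protein, at 11.3 and 0 to 0.741 FPKM, and ST14 was highest in ES3. Of 9 oviduct secretory markers 4 were measured, with sums of 21.3 FPKM in ES6, 1.31 to 1.91 in the rest of ES and 0.715 to 2.48 in NES. WFDC2, an epithelial secretory protein, was at 17.4 FPKM in ES6 and at most 1.03 FPKM elsewhere, KRT7 at 1.69 and at most 0.659 FPKM, and EMX2 was highest in NES1. The defining secretory markers OVGP1 and PAX8 had no locus under their own name. Surface mesothelium markers, 7 of 8 measured, summed to 17.5 FPKM in ES6, 3.84 to 12.6 in the rest of ES and 5.39 to 7.63 in NES, and none passed the 5-fold step in ES6. WT1, a factor of mesothelium and granulosa, was at 7.63 FPKM in ES6 and 9.16 FPKM in ES2, where it was highest. Most of the general epithelium markers, 3 of the 4 measured secretory markers and 4 of the 7 mesothelium markers were thus highest in ES6 (all loci: 10.6%). Without ES6 the median log2 difference (ES minus NES) was 0.90, 0.85 and 0.48 for these lists, and -0.08 for the 35 cilia genes. The part of these markers in the result was not tested. The labels call each sample an ovary and do not say how it was trimmed, so a level in ES6 is that of the sample as collected. In bulk RNA, more cells of a type and more RNA per cell cannot be told apart.

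ES6 otherwise carried the markers of an ovary. Granulosa markers, 7 of 8 measured, summed to 1003 FPKM in ES6 within a range of 44.3 to 1302 in the other ES libraries and 156 to 632 in NES. FOXL2, the factor that keeps granulosa identity, was at 8.25 FPKM in ES6 and 1.14 to 11.7 FPKM elsewhere. INHA, an inhibin subunit, was at 833 FPKM in ES6 and highest in ES1. Oocyte markers, 8 of 9 measured, summed to 5.17 FPKM in ES6, below the 7.53 to 14.1 of all other libraries, and GDF9 was at 2.58 FPKM in ES6 and 2.18 to 3.72 FPKM elsewhere. Luteal markers, 4 of 6 measured, summed to 142 FPKM in ES6 against 36.4 to 397 in the rest of ES and 22.5 to 40.7 in NES. Macrophage markers, 6 of 7 measured, were at 8.49 FPKM in ES6 and stood apart in ES3 (336 FPKM). Across all loci, 374 passed the 5-fold step in ES6, 294 in ES3, 115 in ES1, 91 in ES4 and 4 to 12 in each other library, so ES6 was not alone in standing apart.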

How the data were processed

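Ovarian RNA of 6 ES and 6 NES gilts was used, grouped by sample title. Per the labels' protocols, libraries were strand-specific with dUTP after removal of ribosomal RNA. Reads were handled with HISAT2, TopHat, cutadapt and FastQC on Sscrofa11.1, per the submitters' processing notes. Which program counted reads, with which strand setting and gene models, is not stated there. For each locus the authors deposited raw counts and FPKM values per locus, per the file headers, and the FPKM values are scaled to length and depth by the authors. Every per-sample column was used.

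Members and lists were chosen with earlier results of these data known. Library totals were 58140547 to 68961955 counts. Counts of all 29150 loci, each with at least 1 count, were fitted with edgeR 4.0.16 (quasi-likelihood, TMM factors, no covariate, R 4.3.3), and p-values were adjusted by Benjamini-Hochberg and called under 0.05. The SE is the log2 difference divided by the square root of F. Each library comes from a separate gilt. Levels are FPKM as deposited, and steps between libraries use CPM with TMM factors. In simulated data of 29150 loci for ES against NES, edgeR recovered 49 of 50 well-counted loci changed 8-fold, 46 of 50 changed 4-fold, 21 of 50 changed 2-fold and 3 of 50 changed 1.5-fold, and made 3 false calls. The simulation gave every library of a group the same mean, unlike the measured genes. Alternatives were DESeq2 1.42.0, limma 3.58.1 on log2(FPKM + 0.5) and with pseudocounts of 0.1 and 1, other scaling factors, filters, robust dispersion, a replicate block, the locus of highest FPKM, and each library left out. Figures used matplotlib 3.10.9 in Python 3.11.15 with pandas 2.3.3 and numpy 2.4.6.

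Values were printed for regulators and the 2 genes of highest mean FPKM in each axonemal part, and for up to 3 genes of each other list. Further genes (SPAG6, CFAP54, SPAG17, SPEF2, DNAH3, DNAH7, DNAH11, RSPH1, RSPH9, CFAP61, TEKT2, DRC1, ARMC3, ARMC4 and those said to be so) were chosen after their values were seen. No sequence was printed.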

Additional observations from a re-analysis of the deposited data

Results flagged for a closer look

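In groups of 6, a library was taken as far from the others when its gap to the nearest one exceeded Dixon's 95% critical share of the group's range. Chance meets this in about 1 of 20 groups if the values are normally distributed, which FPKM values need not be. ES6 was such a library within ES for 33 of the 35 genes, with a gap of 0.661 to 0.998 of the range, and for the summed level (0.957). Over all 29150 loci ES6 met it as the highest ES library at 5.05%, and some ES library did so at 21.7%. The genes were listed with results of these libraries known, so nothing is read from their count. The regulators had 0.998 (FOXJ1), 0.932 (RFX2), 0.661 (RFX3), 0.909 (MCIDAS) and 0.791 (CCNO). Central pair genes had 0.93 (CFAP46), 0.997 (HYDIN), 0.864 (SPEF2), 0.982 (SPAG6), 0.978 (CFAP54) and 0.987 (SPAG17). Dynein genes had 0.766 (DNAH10), 0.99 (DNAH1), 0.989 (DNAH7), 0.957 (DNAH3), 0.946 (DNAI2), 0.982 (DNAH5), 0.974 (DNAH11), 0.779 (ARMC4) and 0.814 (LRRC6). Spoke genes had 0.925 (ROPN1L), 0.905 (RSPH4A), 0.986 (CFAP61), 0.914 (RSPH9) and 0.967 (RSPH1). The others had 0.967 (CFAP100), 0.898 (CFAP52), 0.988 (TEKT1), 0.98 (TEKT2), 0.852 (CFAP70), 0.977 (AK7), 0.935 (ARMC3) and 0.966 (DRC1). CCDC39 and CCDC65 did not meet the criterion.

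Within NES 5 such cases were found. NES3 was high for 2 outer arm genes, DNAH5 (0.738) and ARMC4 (0.77). NES6 was high for HYDIN (0.948, 220 counts) and CFAP52 (0.68, 355 counts). NES2 was the only NES library with a count for MCIDAS (1.0, 4 counts).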

How the results depend on the processing

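No setting called any of the 35 genes in either direction, and leaving out each library in turn gave 0 to 0 called genes. DESeq2 gave a p for only 8 of the 35 genes, so the other 27 could not be called there. Over all loci, edgeR called 3 higher and 25 lower in ES. The counts were 537 and 619 with DESeq2, 2 and 45 with limma on log2(FPKM + 0.5), 6 and 106 with a pseudocount of 0.1, and 0 and 1 with a pseudocount of 1. They were 0 and 0 with relative log expression factors, 28 and 279 with library size alone, 31 and 162 at a mean FPKM of at least 0.5 (16 of the 35 genes), 28 and 142 after filterByExpr (30 of the 35 genes), and 6 and 47 with robust dispersion. Leaving out each library gave 0 to 56 higher and 0 to 307 lower. The cause was not tested. The median log2 difference of the 35 genes was 1.90, and 0.35, 0.46 and 0.27 in the limma fits with pseudocounts of 0.5, 0.1 and 1, and the cause was not tested. It was -0.076 to 2.16 with a library left out, the lowest without ES6. With the replicate block it was 0.33, 28 genes were positive, and edgeR called 2 loci higher and 0 lower. Same-numbered libraries had correlated deviations of -0.070 to 0.29, 2 of the 6 ES libraries correlated best with their own number, and the labels do not say that numbers mark sisters, so they were not paired. The ratio of the ES to the NES mean of the summed level was 2.69 (2.14 on CPM, 2.55 without FOXJ1, CCDC39 and CFAP46), and 0.82 to 3.10 with a library left out, the lowest without ES6. Taking each symbol at the locus of highest FPKM changed only CFAP54. With library size alone 33 genes were positive. Counts under about 20 outside ES6, as for FOXJ1, limit what can be said of differences among the other 11 ovaries.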

Other observations

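Among loci outside both motile cilia lists, 101 carry a term for the axoneme, motile cilium or its assembly in the gene ontology column of the authors' deposited table, a set chosen after the values above were seen. ES6 was the highest library for 39 of them (all loci: 10.6%) and stood at least 5-fold above the next for 11 (all loci: 1.28%). Of the 35 listed genes 18 carry such a term, and 24 carry any term naming cilia, axoneme or flagellum.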
